A study of Sus scrofa with 5 samples.

Results

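The miR-221 and miR-222 pair was followed through 5 small RNA libraries of the pig. Its members were every entry of the table of reported miRNAs named ssc-miR-221 or ssc-miR-222, with or without an arm ending, and the rule reads names and no measured value. These were ssc-miR-221-3p, ssc-miR-221-5p and ssc-miR-222, 3 of the 411 mature names in the table and 3 of the 327 with a read. They come from 2 hairpins, ssc-mir-221 with both arms listed and ssc-mir-222 with a single entry that carries no arm ending. Each member had 1 precursor entry, so no sum over precursors was needed.

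BL_1 and BL_2 were pools of blastocysts sampled on day 7 after parthenogenetic activation, that is, from oocytes activated without sperm by an electric pulse and 6-DMAP, and were kept in PZM3 with fetal bovine serum added later. The ES-like line, derived from in vitro produced blastocysts and named for its likeness to embryonic stem cells, was grown in serum with human recombinant stem cell factor at 40 ng/ml and basic fibroblast growth factor at 20 ng/ml, on mitomycin-C-treated mouse embryonic fibroblasts as feeder cells. PEBs were embryoid bodies aggregated from colonies of ES-like cells in hanging drops without these cytokines. PFFs were fibroblasts of pig fetuses, from which head, limbs and internal organs had been removed, grown in serum. Replication was limited to BLs, with 2 libraries, and no difference among the 3 cultured cell types, with a single library each, can be set against replicates. Nothing in the labels says that the BL pools came from separate oocyte collections, so the spread between them may be technical.

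A miRNA guides the silencing machinery to messenger RNAs by pairing of its seed, the bases near its 5′ end. miR-221-3p and miR-222 share a seed and are made from neighbouring hairpins of the X chromosome, and are usually thought of as products of a common primary transcript. Both are known to repress CDKN1B, an inhibitor of the cell cycle, and KIT, the receptor of stem cell factor, and are known for high levels in growing fibroblasts and many tumours. miR-221-5p is the opposite strand of the miR-221 hairpin, usually the less abundant. In the RefSeq annotation of the pig assembly Sscrofa11.1, MIR221 and MIR222 were direct neighbours with no annotated gene between them. The nearest other annotated miRNA there, MIR9859, had 0 reads as ssc-miR-9859-3p in all 5 libraries.

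Mature miRNA reads ranged from 113743 in BL_1 to 27071931 in PFFs, and BL_1 and BL_2 were the 2 libraries with the fewest. Levels are given as reads per 1000000 mature miRNA reads of that library (RPM), with exact (Clopper-Pearson) 95% intervals that cover counting error only, since amplified reads are not independent molecules. The read summary that accompanies the study gives the mature totals of ES-like cells and PFFs exchanged relative to the deposited columns. The submitters' titles, which carry the column names, were followed here, and an exchange would swap every value of ES-like cells and PFFs below. Under these titles miR-143-3p, a mesenchymal miRNA, was at 13226 RPM in ES-like cells and 101507 RPM in PFFs, and miR-363, of a pluripotency-associated cluster, at 41258 RPM in ES-like cells and 280.0 RPM in PFFs. A member without a read could have been present at up to 26.4 RPM in BL_1 and 0.111 RPM in PFFs, and all 3 members were above that limit in every library. In such bulk libraries, fewer cells with a miRNA and less of it per cell cannot be told apart.

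miR-221-3p was most abundant in PFFs. It had 71 reads in BL_1, or 624 RPM (488 to 787), and 1389 in BL_2, or 499 RPM (473 to 526). In ES-like cells it had 2714 reads and 426 RPM (410 to 442). In PEBs it had 13978 reads and 882 RPM (867 to 897), and in PFFs 72583 reads and 2681 RPM (2662 to 2701). PFFs stood above the other 4 libraries, and ES-like cells were the lowest. In order of abundance, miR-221-3p was number 26 of 315 miRNAs with a read in PFFs and number 94 of 309 in ES-like cells.

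miR-222 had another profile, with its highest level in BLs. It had 234 reads in BL_1, or 2057 RPM (1802 to 2338), and 3149 in BL_2, or 1132 RPM (1093 to 1172). ES-like cells had 1043 reads, or 164 RPM (154 to 174), and PEBs 5111 reads, or 322 RPM (314 to 331). PFFs had 28102 reads, or 1038 RPM (1026 to 1050). BLs and PFFs were thus high, and ES-like cells and PEBs low. In BL_1 miR-222 was number 31 of 215 miRNAs with a read, and in ES-like cells number 137 of 309.

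miR-221-5p followed the profile of miR-222, at a lower level. It had 35 reads in BL_1, or 308 RPM (214 to 428), and 896 in BL_2, or 322 RPM (301 to 344). ES-like cells had 285 reads, or 44.7 RPM (39.7 to 50.2), PEBs 1336 reads, or 84.3 RPM (79.8 to 88.9), and PFFs 6380 reads, or 236 RPM (230 to 242). The intervals of BL_1 and PFFs overlapped, while both stood above ES-like cells and PEBs.

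**Figure D1:**
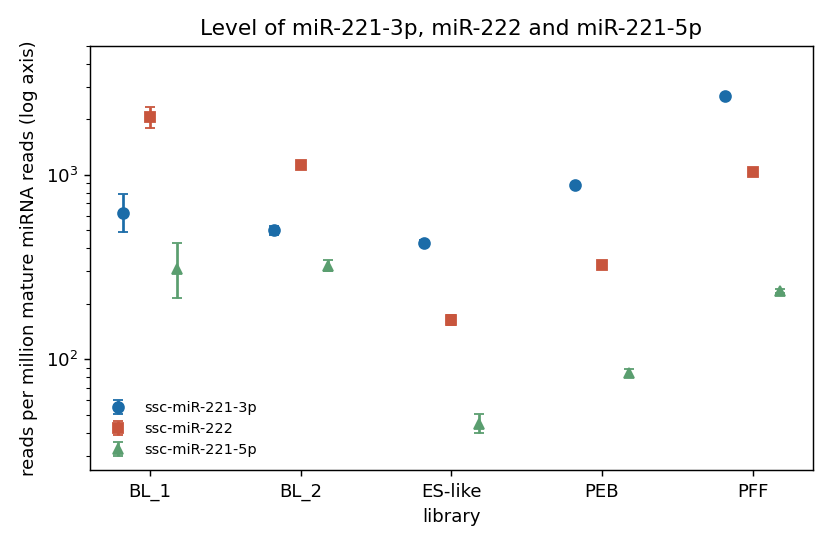
Level of each member in each library, in reads per 1000000 mature miRNA reads on a log axis, with exact 95% intervals for counting error. miR-222 lies above miR-221-3p in both BL libraries, at 2057 and 1132 RPM, and below it in ES-like cells, PEBs and PFFs.

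With BLs taken as the mean of both libraries, the order of miR-221-3p was ES-like cells, BLs at 562 ± 88.4 RPM (SD, n = 2), PEBs and PFFs. ES-like cells lay 1.32-fold below BLs, which was more than the SD of the BL libraries, and PEBs lay above both BL libraries. The order of miR-222 was ES-like cells, PEBs, PFFs and BLs, at 1595 ± 654 RPM (SD, n = 2) in BLs. PFFs and BLs, the upper neighbours in that order, differed by less than the SD between the BL libraries. For miR-221-5p the order was the same, with BLs at 315 ± 10.1 RPM (SD, n = 2), and here PFFs lay below BLs by more than that SD but within the counting interval of BL_1. The BL libraries differed by 1.82-fold in miR-222 and 1.25-fold in miR-221-3p. Among 67 miRNAs with at least 50 reads in BL_1, the median difference between BL libraries was 1.37-fold, and 20.9% differed by as much as miR-222 or more.

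Cell types were compared in pairs with the study's threshold of 2-fold, without a test. The study applied it to values normalised with the package TCC and screened for miRNAs raised or lowered specifically in a cell type. It also screened pluripotent against differentiated samples with it. Here RPM and single pairs of cell types were used instead, and the count past 2-fold was 15 with TMM scaling. Comparisons that involve BLs share the same BL libraries, and those that involve another cell type share its library. Of 18 comparisons (3 members in 6 pairs of cell types), 12 were past 2-fold. This count is not read as a result about the members. The share of all miRNAs past 2-fold is given below for each pair and direction. Between PFFs and ES-like cells, the 3 members moved by similar factors. miR-221-3p was 6.30 times, miR-222 6.34 times and miR-221-5p 5.27 times as high in PFFs, where 16.1% of the 279 miRNAs tested (those above 5 reads in 3 or more libraries) were more than 2-fold above ES-like cells. Between PFFs and PEBs the factors were 3.04, 3.22 and 2.80, with 14.0% of all miRNAs more than 2-fold above PEBs.

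PEBs lay close to 2-fold above their source cells for each member. The factor was 2.07 for miR-221-3p, 1.97 for miR-222 and 1.88 for miR-221-5p, so 1 of the 3 was past the threshold, where 20.8% of all miRNAs were. The sum of the seed-sharing pair, miR-221-3p plus miR-222, was highest in PFFs at 3719 RPM, with 590 for ES-like cells and 1204 for PEBs, against 2681 and 1631 in the BL libraries. By this sum BLs lay between PEBs and PFFs.

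Against BLs the members parted. BLs exceeded ES-like cells 9.74-fold in miR-222 and 7.04-fold in miR-221-5p, but 1.32-fold in miR-221-3p, and 20.8% of all miRNAs were more than 2-fold higher in BLs. Against PEBs, miR-222 was 4.94 times and miR-221-5p 3.74 times as high in BLs, with 23.3% of all miRNAs past 2-fold, whereas miR-221-3p was 1.57 times as high in PEBs. Against PFFs, PFFs exceeded BLs 4.77-fold in miR-221-3p, where 40.1% of all miRNAs were past 2-fold. miR-222 and miR-221-5p were 1.54 and 1.34 times as high in BLs as in PFFs, both below the threshold, where 35.1% of all miRNAs were past it. In the opposite directions no member was past 2-fold. The share of all miRNAs there was 55.6% for ES-like cells above BLs, 54.8% for PEBs above BLs and 23.7% for ES-like cells above PEBs. It was 53.0% for ES-like cells and 45.5% for PEBs above PFFs.

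These factors depended on the scale between libraries. With TMM scaling, which lowers ES-like cells and raises PFFs against RPM, the log2 difference between PFFs and ES-like cells was 4.05 for miR-221-3p, 4.06 for miR-222 and 3.79 for miR-221-5p, against 2.65, 2.67 and 2.40 with RPM. Between PFFs and PEBs the log2 difference was 2.51, 2.59 and 2.39 with TMM, against 1.60, 1.69 and 1.48 with RPM. The step from ES-like cells to PEBs was 1.54, 1.47 and 1.41 on the log2 scale with TMM, past 2-fold for each member. For ES-like cells against BLs, the log2 difference was -3.97 in miR-222 and -3.55 in miR-221-5p with TMM, against -3.28 and -2.82 with RPM. For miR-221-3p it was -0.40 with RPM, but -1.11 with TMM and -1.06 with DESeq2's size factors, past 2-fold under both. The log2 difference of PEBs over BLs in miR-221-3p was 0.65 with RPM, 0.43 with TMM and 0.01 with DESeq2's size factors. No comparison past 2-fold with RPM fell below it or changed direction under the 3 other scalings. The order of PFFs and BLs turned for miR-222, to a log2 difference of 0.09 in favour of PFFs with TMM, and for miR-221-5p, to 0.24.

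**Figure D2:**
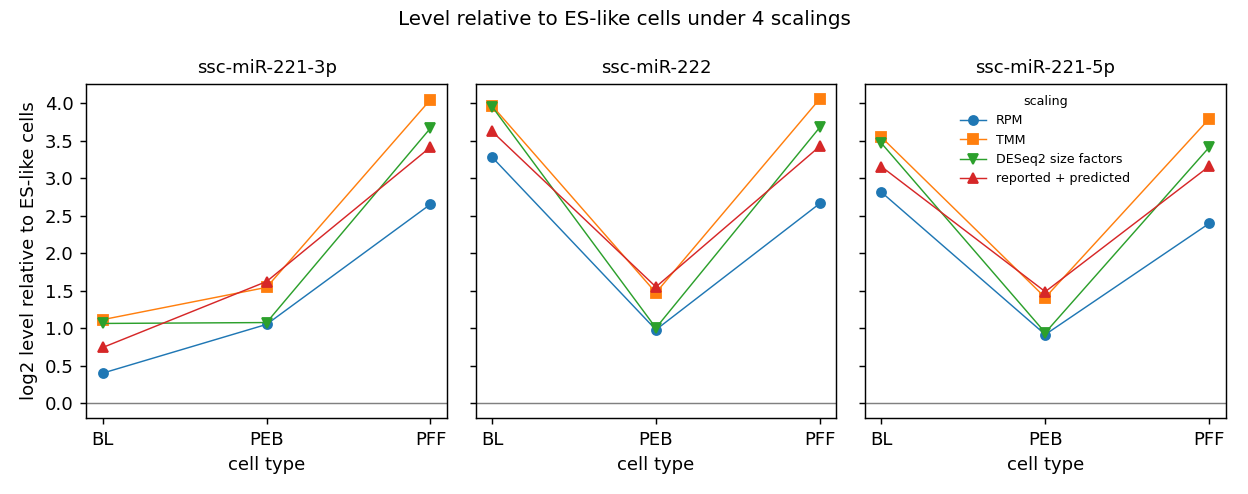
Log2 level of each member in BLs (mean of 2 libraries), PEBs and PFFs relative to ES-like cells, under 4 scalings of the libraries. miR-222 and miR-221-5p are lower in PEBs than in BLs and PFFs under each scaling, at 0.98 and 0.91 for RPM, while miR-221-3p is highest in PFFs, at 2.65.

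The ratio of miR-221-3p to miR-222 within a library does not depend on that scale. It was 0.303 in BL_1 (0.229 to 0.397) and 0.441 in BL_2 (0.414 to 0.470). ES-like cells had a ratio of 2.60 (2.42 to 2.80), PEBs of 2.73 (2.65 to 2.82) and PFFs of 2.58 (2.55 to 2.62). The 3 cultured libraries thus had nearly the same ratio although the level of the pair differed by 6.31-fold among them, and both BL libraries had more miR-222 than miR-221-3p. miR-221-3p made up 23.3% and 30.6% of the pair in BL_1 and BL_2, and 72.2%, 73.2% and 72.1% in ES-like cells, PEBs and PFFs. The intervals of BL_1 and BL_2 did not overlap, nor did those of PEBs and PFFs, while the interval of ES-like cells overlapped both of the latter.

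On the log2 scale, the mean ratio was -1.45 ± 0.38 in BLs (SD, n = 2) and 1.40 ± 0.04 in the cultured samples (SD, n = 3), a difference of -2.85 or 7.21-fold. The groups did not overlap, and the exact permutation test over libraries (two-sided) gave p = 0.1, the smallest value that 2 against 3 libraries allow. This and the later permutation tests, and the SD over cultured samples, treat ES-like cells and the PEBs made from them as independent, which they are not. For pluripotent samples (BLs and ES-like cells) against differentiated samples (PEBs and PFFs), the contrast drawn in the study, the groups overlapped and the exact permutation test gave p = 0.3. ES-like cells had the ratio of PEBs and PFFs rather than that of BLs. The labels separate embryos from cultured samples in the same way as depth does. By the study's quality control, BLs also had a smaller share of miRNAs among small RNAs than cultured samples, and a wide peak of longer reads. The kind of sample, the number of mature miRNA reads and this make-up of the libraries thus cannot be told apart. Leaving out BL_1, the shallowest library, gave a difference of -2.58.

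The arms of the miR-221 hairpin differed along the same line. miR-221-5p stood at 0.493 of miR-221-3p in BL_1 (0.319 to 0.749) and at 0.645 in BL_2 (0.592 to 0.702). It stood at 0.105 in ES-like cells (0.0926 to 0.119), 0.0956 in PEBs (0.0903 to 0.101) and 0.0879 in PFFs (0.0857 to 0.0902). The 3p arm was the more abundant in every library, but by far less in BLs than in cultured samples. The mean log2 ratio was higher in BLs by 2.56 (exact permutation test, two-sided, p = 0.1, the smallest possible), or 5.88-fold, and the groups did not overlap. Between differentiated and pluripotent samples the difference was -1.81 (exact permutation test, two-sided, p = 0.2), with ES-like cells close to PEBs and apart from BLs. The groups did not overlap, but only by the gap between ES-like cells and PEBs, with log2 ratios of -3.25 and -3.39. The counting intervals of these libraries overlapped, and overlap in this contrast was not counted for other hairpins.

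By contrast, the ratio of miR-221-5p to miR-222, which come from different hairpins, was alike in 4 libraries. It was 0.285 in BL_2 (0.264 to 0.307), 0.273 for ES-like cells (0.239 to 0.312), 0.261 in PEBs (0.246 to 0.278) and 0.227 in PFFs (0.221 to 0.233), and was lower in BL_1 at 0.150 (0.102 to 0.214). The means of BLs and cultured samples differed by -0.30 on the log2 scale, with overlapping groups (exact permutation test, two-sided, p = 0.7). Of the 3 members, miR-221-3p was thus the entry whose proportion to both others changed between BLs and cultured samples.

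**Figure D3:**
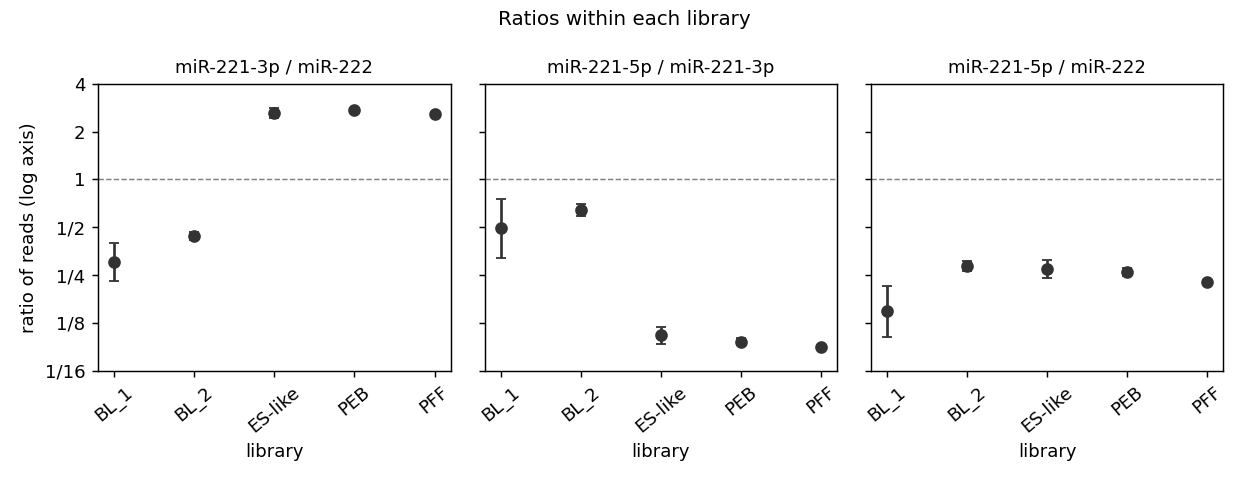
Ratio of reads of 2 members within each library, on a log axis, with exact 95% intervals for counting error and a dashed line at equality. The ratio of miR-221-3p to miR-222 is below 1 in BL_1 and BL_2 and between 2.58 and 2.73 in ES-like cells, PEBs and PFFs, and the ratio of miR-221-5p to miR-222 stays between 0.150 and 0.285.

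From a list of known clusters, 19 other pairs of neighbouring miRNAs were in the table. 3 of them gave no ratio in some library because a miRNA had 0 reads there, and 11 had at least 10 reads of both miRNAs in every library. In 5 of the 11 (45.5%) the BL libraries did not overlap the cultured ones. The absolute difference in log2 ratio had a median of 0.92 and a range of 0.21 to 3.0, against 2.85 for miR-221-3p and miR-222. Of the 11, miR-30d and miR-30b-5p had a larger difference, of 8.02-fold, and so did miR-424-5p and miR-503, left out for few reads, at 8.39-fold. In none of the 11 did the more abundant miRNA of the pair change between BLs and all cultured samples. Among the pairs left out for few reads, miR-23a and miR-27a did so, with log2 ratios of 1.74 and 1.82 in the BL libraries, and of -0.28 in PFFs, -0.79 in PEBs and -0.87 in ES-like cells. The log2 ratio of miR-221-3p to miR-222 had a range of 0.08 among cultured samples, below that of each of the 11 other pairs (0.22 to 2.74). For the other pairs, counts were summed over precursor entries where a miRNA had several. Their ratios therefore need not be those of a single cluster, unlike the ratio of the members.

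**Figure D4:**
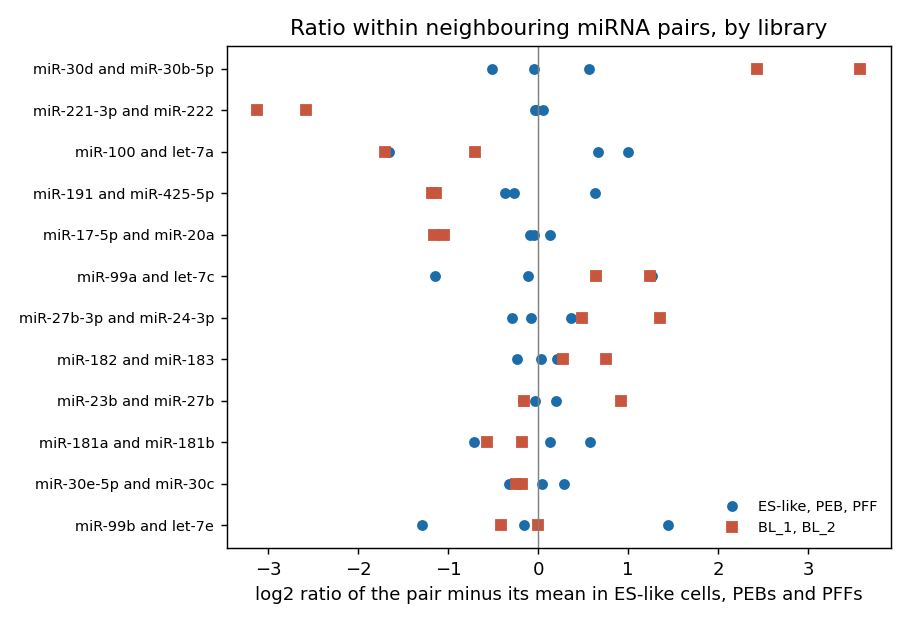
Log2 ratio of 12 pairs of neighbouring miRNAs in each library, after subtraction of the mean of ES-like cells, PEBs and PFFs. The pairs are sorted by the size of the difference between BLs and cultured samples, which is 2.85 for miR-221-3p and miR-222 and 3.0 for miR-30d and miR-30b-5p.

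Shifts of arm ratio between BLs and cultured samples were common. Of 77 other hairpins with a 5p and a 3p entry, 9 had at least 10 reads of both arms in every library, and BLs did not overlap cultured samples in 6 of the 9 (66.7%). The absolute difference was 1.43 in the median of the 9, against 2.56 for miR-221, and it was larger for miR-361 and miR-92b, at 3.24 and 2.75. Among hairpins left out for few reads, it was also larger for miR-424, miR-365 and miR-129a, at 4.38, 2.93 and 2.61. The 5p arm took a larger part in BLs for miR-92b and miR-423, as for miR-221, and a smaller part for miR-361, miR-28, miR-140 and miR-30e, so that 4 of the 6 went in the direction opposite to miR-221. These miRNAs were named after their values were seen.

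Each member was also tested with edgeR's quasi-likelihood test on the counts of all 279 miRNAs, with Benjamini-Hochberg adjustment. Between BLs and cultured samples, 31 miRNAs (11.1%) had an adjusted p under 0.05, and no member was among them. For miR-222 the log2 fold change was 1.51, with a standard error of 1.14 (adjusted p = 0.347). miR-221-5p had 1.41 (standard error 1.13, adjusted p = 0.371). miR-221-3p had -1.29 (standard error 1.20, adjusted p = 0.423), and its BL libraries lay between ES-like cells and PEBs. The median over all miRNAs was -0.84, and miR-222 lay above it. miR-221-3p lay below the median here but above it with library totals, at -1.24 against -1.42, without BL_2, at -1.45 against -1.97, and without PFFs, at 0.45 against -0.29, so its side of the median depends on the setting.

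These values depended on single cultured libraries. Without ES-like cells, the log2 fold change was 0.67 for miR-222 and 0.48 for miR-221-5p, and without PEBs it was 0.92 and 0.72 (edgeR's quasi-likelihood test, no call). Without PFFs, miR-222 was higher in BLs by a log2 fold change of 3.31 (adjusted p = 0.00419, edgeR's quasi-likelihood test) and miR-221-5p by 3.02 (adjusted p = 0.0105), where 38.9% of 229 miRNAs were called. miR-221-3p was then at 0.45 (adjusted p = 0.714). In that fit BLs were set against ES-like cells and the PEBs made from them, which are not independent cultures.

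Between differentiated and pluripotent samples, edgeR's quasi-likelihood test called 0 of 279 miRNAs (0%), with 21 at an unadjusted p under 0.05, while DESeq2 called 14 and limma 0. The log2 fold change of miR-221-3p was 2.09, with a standard error of 1.18 (adjusted p = 0.478). PFFs carried most of this value, which was 0.31 without PFFs and 3.14 without PEBs, with no call. miR-222 had -0.48 (standard error 1.44, adjusted p = 0.960) and miR-221-5p -0.39 (standard error 1.45, adjusted p = 0.976), with overlapping groups, since PFFs and BLs were high on either side.

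The miRNAs most like each member over the 5 libraries were found by Pearson's r on log2(RPM + 10), among 154 other miRNAs with a mean of at least 100 RPM, as a description. For miR-222 the closest was miR-221-5p (r = 0.974), followed by miR-193a-5p (0.942), miR-28-3p (0.902), miR-7857-3p (0.887) and miR-133a-3p (0.879). miR-193a-5p had 220 and 208 RPM in the BL libraries and 196 in PFFs, against 2.98 in ES-like cells and 2.46 in PEBs, a steeper form of the same profile. The closest to miR-221-3p were miR-23a (0.873), miR-100 (0.862), miR-143-5p (0.817), miR-370 (0.802) and let-7a (0.762), of which miR-100 and let-7a belong to a common cluster. miR-23a, of the miR-23a and miR-27a cluster, had 176 and 324 RPM in the BL libraries and 335, 705 and 1679 RPM in the 3 cultured ones, in the order ES-like cells, PEBs and PFFs, and thus the order of miR-221-3p except for the place of BLs and ES-like cells. The r between miR-221-3p and miR-222 was 0.267, number 45 in the order of miR-221-3p.

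A list of 12 other miRNAs, known to target KIT or CDKN1B or to be linked to fibroblast growth, showed no common direction between PFFs and ES-like cells. In PFFs, 4 of the 12 were more than 2-fold above ES-like cells, and 4 were more than 2-fold below, against 16.1% and 53.0% of all miRNAs. Among those above was miR-193a, listed without an arm and matched to its more abundant 5p arm. Whether the basis of the list holds for that arm was not checked. miR-21, the leading miRNA of PFFs, had 154848 RPM in ES-like cells and 522808 in PFFs. miR-155-5p, known from activated immune cells, had 108 and 279 RPM. miR-148a-3p and miR-196a went the other way, with 160140 and 1117 RPM in ES-like cells and 15316 and 6.94 in PFFs. Between BLs and cultured samples, 1 of the 12 was called by edgeR's quasi-likelihood test, a share near the 11.1% of all miRNAs. It was miR-152, which was lower in BLs by a log2 fold change of -5.77 (adjusted p = 0.0215). The median log2 fold change of the 12 was -2.31, against -0.84 over all miRNAs.

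Lists of cell type markers were set beside these levels. The summed level of 11 mesenchymal and fibroblast-associated miRNAs was 67556 and 106372 RPM in the BL libraries, 245046 for ES-like cells, 411012 after their aggregation to PEBs and 766418 in PFFs. The sum was mostly miR-21 in PFFs, at 522808 RPM, and miR-21 and miR-10b made up most of it in BLs. Single members had other orders, and 5 of the 11 were higher in PEBs than in PFFs, among them miR-214 at 774 and 516 RPM and miR-199a-3p at 80420 and 52517 RPM. miR-199a-3p and miR-199b-3p had nearly equal counts in every library, so that the sum holds these reads a second time. Of the 11, 7 were called lower in BLs than in cultured samples by edgeR's quasi-likelihood test, against 13 called lower among all 279 miRNAs. These 7 hold miR-145-5p and miR-214, which passed the filter only through the cultured libraries where they were high. They also hold miR-199a-3p and miR-199b-3p as separate calls, so no conclusion is drawn from the count. In BL_1, 3 of the 11 were at 0 and in BL_2 1, and miR-145-5p and miR-214 had 0 reads in BL_1 and 3 and 2 in BL_2, while miR-199a-3p was at 193 and 122 RPM. ES-like cells, kept on mouse fibroblasts, had 84285 reads of miR-143-3p. The part of mesenchymal or feeder cells in the levels of the pair was not tested.

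The 7 pluripotency-associated miRNAs in the table (of 12 in the list) summed to 381087 and 347298 RPM in BL_1 and BL_2 and to 9476 in PFFs, with PEBs at 75993 and ES-like cells at 147230. In BLs most of the sum was miR-371-5p, at 324635 and 296148 RPM, whereas 5 of the 7 were more than 2-fold higher in ES-like cells than in BLs, as were 55.6% of all miRNAs. Entries for miR-302 and miR-367 were not found in the table of reported miRNAs. Of 7 epithelial miRNAs, 2 were in the table and had opposite profiles. miR-205 was at 4748 and 5753 RPM in the BL libraries and 71.7 in PEBs, and miR-429 was at 0 and 23.4 RPM in the BL libraries and 718 in PEBs. Their sum was 0.776 RPM in PFFs, against 1220 for ES-like cells and 789 for PEBs. The liver miRNA miR-122 was at 101004 RPM in ES-like cells and 54096 in PEBs, against 4.14 in PFFs. Skeletal muscle miRNAs summed to between 191 RPM in ES-like cells and 2445 in BL_2, blood cell miRNAs to at most 106 RPM and endothelial miRNAs to at most 1342 RPM, in ES-like cells.

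The position of the pair on the X chromosome was also considered, since PFFs were described in the study as XY and ES-like cells and PEBs as XX. Of 29 other X-linked miRNAs tested, 4 (13.8%) were past 2-fold in PFFs over ES-like cells, against 33 of 206 (16%) on other chromosomes. In PFFs over BLs, 13 of the 29 (44.8%) and 75 of the 206 (36.4%) were past 2-fold. PFFs had the highest level for 8 of the 29 (27.6%) and for 29 of the 206 (14.1%). The sex of the cells and the cell type cannot be told apart here.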

How the data were processed

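The cell type of each of the 5 small RNA libraries came from the submitters' labels. The authors removed reads under the length limit or without adapter, trimmed with cutadapt 1.10, aligned with Bowtie 1.1.1 to the pig genome (Sscrofa10.2) and, with SAMtools 1.2 and HTSeq 0.6.1p1, quantified them. miRDeep2 with miRBase sorted miRNAs into reported and predicted ones. Reported miRNAs were deposited as raw counts, and how reads matching several hairpins were counted is not given in the sources used here. The deposited table of predicted loci, also raw read counts, entered 1 alternative scaling only, with the larger value where a cell held 2. 10 further per-library columns of predicted names and scores were not used.

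Counts were divided by the library's mature total (RPM). Levels, ratios and arms were compared as described, with a 2-fold threshold. The 279 miRNAs above 5 reads in 3 or more libraries were tested with edgeR 4.0.16 (TMM, quasi-likelihood, adjusted p threshold 0.05) under R 4.3.3, and DESeq2 1.42.0 and limma 3.58.1, on log2(RPM + 10), were alternatives. The standard error is the log2 fold change over the root of the F statistic. The libraries of a tested group are of different cell types except for BLs. The steps were tested on simulated counts. Calculations ran in Python 3.11.15 (scipy 1.17.1, numpy 2.4.6 and pandas 2.3.3).

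The members and lists were chosen with earlier results of these data known. Named miRNAs are the members, the 5 most alike by Pearson's r for miR-221-3p and miR-222, cluster pairs, the companions of the pair and marker lists. Hairpins of the arm comparison and miR-9859 fall outside this rule. List names were matched with or without an arm ending, taking the more abundant arm where a name had 2. Of the 20 fixed cluster pairs, 1 had no match in the table. For position, 348 of 411 names matched RefSeq. Sequences of the members were not used here.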

Additional observations from a re-analysis of the deposited data

How the results depend on the processing

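No paired analysis was possible because only the BL libraries carry replicate numbers. The differences in the ratios of miR-221-3p to miR-222 and of miR-221-5p to miR-221-3p kept their direction with 1 read added and with any 1 library left out. Scaling and the choice of precursor entry could not change them. The ratios are taken within a library, and each member had 1 precursor entry. Leaving out 1 library moved the difference between BLs and cultured samples over -3.12 to -2.58 and 2.36 to 2.75. The count of member comparisons past 2-fold was 12 to 15 under the scalings, pseudocount and BL libraries tried. It was not set against the same count over all miRNAs under each of these. The number of miRNAs called between BLs and cultured samples was less stable. It was 55 with DESeq2's size factors, 57 with library totals only, 51 without a filter and 42 with the largest precursor entry. With at least 10 reads in every library it was 23 of 116, and it was 100 with DESeq2 and 68 with limma. It was 3 without PEBs, 16 without ES-like cells and 89 without PFFs. Leaving out a BL library leaves 1 in that group, so no count is given there. The median log2 fold change of all miRNAs was -0.84 with TMM and -1.42 with library totals. Between differentiated and pluripotent samples DESeq2 called 14, and edgeR called 0 without BL_1 or BL_2 and 16 without ES-like cells. Without ES-like cells both contrasts set PEBs and PFFs against BLs, so these 16 calls are those of the same fit with the signs turned. Fold changes of members that changed sign were not called on either side. For miR-221-5p between differentiated and pluripotent samples, the log2 fold change was 0.19 without a filter, 0.34 with at least 10 reads in every library, 0.16 with the largest precursor entry and -2.06 to 0.71 with 1 library left out. For miR-222 in that contrast it was 0.11 with at least 10 reads in every library and -2.33 to 0.53 with 1 library left out. For miR-221-3p between BLs and cultured samples, leaving out 1 library gave -2.19 to 0.45. There it gave 0.67 to 3.31 for miR-222 and 0.48 to 3.02 for miR-221-5p, and for miR-221-3p between differentiated and pluripotent samples 0.31 to 3.14. The cause was not tested. Where a group is left with 1 library, it is assumed to vary like the others. Depth limits BL_1, where the ratios rest on 35 to 234 reads.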
